A study of Mus musculus with 21 samples.

Results

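The 180 genes described here are among the longest transcription units measured in mouse cortical cultures, each spanning at least 500 kb of genome. They were chosen from a table of 24984 genes as those with a single position, a length of at least 500 kb and a mean of at least 1 CPM (counts scaled to a common library total, corrected by TMM) over 20 libraries. In all, 208 single-position genes reached 500 kb. Of these, 22 carried gene-name prefixes of families that were left out, such as potassium channels, glutamate receptors and neurexins, and 6 of the remaining 186 were under 1 CPM. Length and mean CPM were the values that chose the genes. The shortest were Edil3 (501.8 kb), Dock1 (503 kb) and Car10 (503.4 kb), and the nearest genes below the limit were Ank3 (493.7 kb), Abca13 (492.3 kb) and Dnm3 (490.7 kb). The longest were Ptprd (2270.7 kb), Dmd (2256.2 kb) and Cntnap2 (2241.3 kb), and the median length was 713.3 kb. Malrd1 (1.1 CPM), Mecom (1.23 CPM) and Pkhd1 (1.68 CPM) were nearest above the limit on level, and Skint5 (0.319 CPM) and Gm37013 (listed at 0) were outside it. Per length, mean levels ran from 0.151 to 753 CPM per 100 kb with a median of 80.7. All 180 genes passed the filter on low counts, the lowest count of any of them in the 20 libraries being 36. Of the 180, 91 overlapped no other gene of the table, and in 6 (Ctnna3, Immp2l, Dock2, Snhg14, Dock1 and Macrod2) the overlapping genes held at least 5% of the gene's own count.

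RNA polymerase II moves along a gene at a limited speed, so a change that starts at the promoter of a very long gene reaches its far end late. A short label marks only the stretch that polymerases cross while it is present, and counts over such a gene are mostly intronic. In neurons the longest genes are rich in adhesion molecules, synaptic scaffolds and receptors, and several, such as Wwox, Fhit and Immp2l, lie at common fragile sites, where long transcription units are replicated late.

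The assay, BrU-seq, reads newly made RNA: cells build bromouridine into transcripts while it is present, and those transcripts are captured for sequencing. Cortical cultures from CD1 mice, at day 17 in vitro, were first kept for 30 min in 25 µM MM401 or in its solvent DMSO. MM401 is an inhibitor that blocks the binding of the histone methyltransferase MLL1 to WDR5. The cultures then received 40 µM bicuculline, a blocker of GABA-A receptors that raises network activity, or water, and all groups had 2 mM bromouridine during the final 30 min. The 7 groups, described as 3 biological replicates of mixed sex, were DMSO with bicuculline at 1 h and at 4 h, DMSO with water at 4 h, MM401 with bicuculline at 1 h and at 4 h, and MM401 with water at 1 h and at 4 h. A DMSO group with water at 1 h was not analysed here. DMSO with bicuculline at 1 h was therefore set against water at 4 h, and in that comparison time and bicuculline cannot be told apart. In bulk cultures fewer cells of a type and less RNA per cell cannot be told apart either.

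Total counts ran from 49886348 to 87939384 in 20 libraries. The library labelled replicate 3 of MM401 with water at 4 h held 316741, or 0.503% of their median, and was left out, so that group had 2 libraries. Fos, an activity-induced gene, was higher with bicuculline in all 4 comparisons with water (log2 fold changes of 2.67 and 1.18 in DMSO and 3.04 and 1.67 in MM401, at 1 h and 4 h), and Npas4, Arc, Nr4a1 and Bdnf were also called higher in all 4. The summed CPM of several of 7 marker lists moved with bicuculline, and no marker was at 0 throughout. Interneuron markers summed to 337 to 394 CPM in the water libraries and 516 to 699 CPM in the bicuculline libraries, and those of oligodendrocyte lineage to 144 to 165 and 169 to 193 CPM. Neuronal markers at 4 h summed to 4540 to 5690 CPM with water and 6710 to 7210 CPM with bicuculline in DMSO, and to 5360 to 5500 and 6060 to 6630 CPM in MM401. At 1 h in MM401 they summed to 4580 to 4860 and 5360 to 6390 CPM, while the DMSO libraries at 1 h (5540 to 5930 CPM) overlapped water. The 6 neuronal markers did not move as 1: in DMSO 1 was called higher and 2 lower at 1 h, and 3 and 2 at 4 h. In MM401 the counts were 2 and 1 at 1 h, and 2 and 2 at 4 h. Astrocyte markers in MM401 summed to 1070 to 1330 CPM with water and 1560 to 1630 CPM with bicuculline at 1 h, and to 1080 to 1190 and 1300 to 1370 CPM at 4 h, and in DMSO they overlapped. Microglial markers at 4 h summed to 25.1 to 30.2 CPM with water and 31.1 to 40 CPM with bicuculline, and those of endothelial cells (1.48 to 3.03 CPM) and fibroblasts (1.82 to 5.24 CPM) were low throughout. The part of any of these lists in the values of the long genes was not tested.

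The 180 genes took 17.23%, 14.64% and 14.11% of all counts in replicates 1, 2 and 3 of DMSO with water. They took 16.07%, 16.06% and 16.34% in DMSO with bicuculline at 1 h, and 15.65%, 16.12% and 15.64% at 4 h. The first DMSO water library thus lay above every DMSO bicuculline library, and the other water libraries lay below all of them. In MM401 the shares were 17.28%, 15.64% and 15.21% with water at 1 h and 16.89%, 17.18% and 15.66% with bicuculline at 1 h, which overlap. At 4 h they were 16.81% and 16.33% with water and 15.35%, 15.13% and 13.6% with bicuculline, so that all MM401 bicuculline libraries were below both water libraries. The median log2 deviation of CPM of the 180 genes from their own means was 0.06 in the first DMSO water library and -0.28 and -0.33 in the others, against a pooled SD of 0.116 between libraries of a group. Replicate 1 of DMSO with water therefore stood apart from its group, and the main counts and medians that rest on it are given with and without it.

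**Figure D1:**
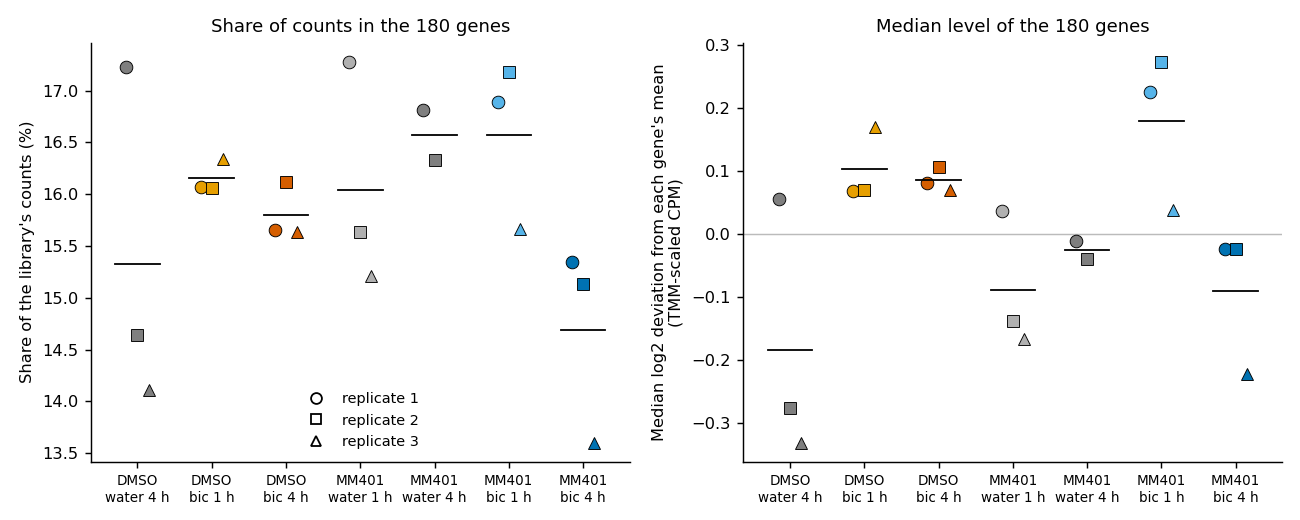
Left, share of each library's counts (percent) in the 180 genes, and right, the median over the 180 genes of the log2 deviation of CPM from each gene's mean over 20 libraries. Points are libraries with the replicate as symbol, and bars are group means: replicate 1 of DMSO with water (17.23%) stands above replicates 2 and 3 (14.64% and 14.11%), and MM401 with bicuculline at 4 h reaches down to 13.6%.

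After 1 h of bicuculline in DMSO the very long genes were higher by a small amount over most of the set. Of the 180, 100 were called higher and 2 lower than in water, where called means an adjusted p under 0.05 in edgeR's quasi-likelihood test. That is 56.7% of them, where 44.6% of the 16959 tested genes were called (20% higher, 24.5% lower). The median log2 fold change was 0.28, or 1.21-fold, against -0.04 over all tested genes, and 172 of 180 values were above 0. The 10th and 90th percentiles were 0.12 and 0.5, against -0.51 and 0.59 over all tested genes, and 1 gene, Elmo1, was past 2-fold, as were 698 of all tested genes. In 71 genes every bicuculline library was above every water library (21.3% of all tested genes) and in 2 every one was below (26.1%). Without replicate 1 of DMSO with water, 156 were called higher and 1 lower, where 21.3% of all tested genes were called higher and 25.3% lower, and the median was 0.41, against -0.04 over all tested genes. Without replicate 2 or without replicate 3 of that group, 69 were called (36.9% and 38.8% of all tested genes), with medians of 0.26 and 0.23.

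In MM401, where both groups were collected at 1 h, 84 of the 180 genes were called higher with bicuculline and 1, Dach2, lower. The share called was 47.2%, where 39.9% of all tested genes were called (18.1% higher, 21.8% lower). The median was 0.27, or 1.2-fold, against -0.002 over all tested genes, and 179 of 180 values were above 0. Libraries were separate between the groups in 73 genes that were higher and 1 that was lower (23.3% and 27.8% over all tested genes). Called counts ran from 45 to 115 as 1 library at a time was left out: 45 without bicuculline replicate 2, 52 and 53 without water replicates 2 and 3, 55 without bicuculline replicate 1, and 114 and 115 without water replicate 1 or bicuculline replicate 3. Over all tested genes 32.5% to 38.7% were called in those fits. The median stayed between 0.22 and 0.35 in those fits.

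At 4 h in DMSO, 94 of the 180 genes were called higher and 9 lower, or 57.2%, where 49.2% of all tested genes were called (23.7% higher, 25.5% lower). The median was again 0.27, or 1.21-fold, against -0.02 over all tested genes, with 10th and 90th percentiles of -0.13 and 0.66, against -0.57 and 0.61 over all tested genes. Past 2-fold were 9 of the 180, where 939 of the 16959 tested genes were. Libraries were separate in 77 genes that were higher (24.6% over all tested genes) and 11 that were lower (27.9%). Without replicate 1 of DMSO with water, 124 were called higher and 3 lower, where 22.9% of all tested genes were called higher and 25.3% lower, with a median of 0.37 against -0.04, and without replicate 2 or 3 of it 75 were called (43.8% and 45.9% of all tested genes).

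At 4 h in MM401 genes of the set were called in both directions, as were all tested genes, and in a share near theirs. Of the 180 genes, 29 were called higher and 45 lower, or 41.1%, where 44.6% of all tested genes were called (23% higher, 21.7% lower). The median was -0.04, against 0.02 over all tested genes, and 76 values were above 0. Libraries were separate in 36 genes that were higher and 75 that were lower, over a background of 34.2% and 32.4%, which is high because the water group has 2 libraries. Without bicuculline replicate 3, which had the lowest share, 31 were called higher and 24 lower (21.2% and 20.1% of all tested genes) and the median was 0.04. Without water replicate 1 or 2, 47 and 49 were called (31.8% and 32.5% of all tested genes).

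The size of the shift depended on the scaling of the libraries. The members' medians kept their sign with plain library totals. With an offset fitted to gene length they turned in DMSO at both times and in MM401 at 1 h. With plain library totals in place of TMM, the median over all tested genes moved to -0.23 and -0.3 in DMSO at 1 h and 4 h, to -0.21 in MM401 at 1 h and to -0.06 in MM401 at 4 h. The members' medians moved with it to 0.09, 0.01, 0.05 and -0.12. The difference between members and all tested genes moved little: 0.32, 0.31, 0.26 and -0.06 with plain totals, and 0.32, 0.30, 0.27 and -0.06 with TMM. The calls became 48 higher and 4 lower, 48 and 47, 19 and 2, and 27 and 75, where 10.8% of all tested genes were called higher and 40.2% lower, 10.7% and 46.4%, 7.52% and 38.6%, and 16.5% and 24.4%. With an offset fitted to gene length in each library, which by construction takes out a shift common to genes of one length, the medians were -0.04, -0.04, -0.06 and -0.03 and the calls 17 higher and 37 lower, 47 and 63, 6 and 27, and 41 and 66, where 19.6% of all tested genes were called higher and 21.7% lower, 23.1% and 23.9%, 17.1% and 20.6%, and 22.8% and 24.6%. Directions given for single genes are relative to the TMM scale.

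**Figure D2:**
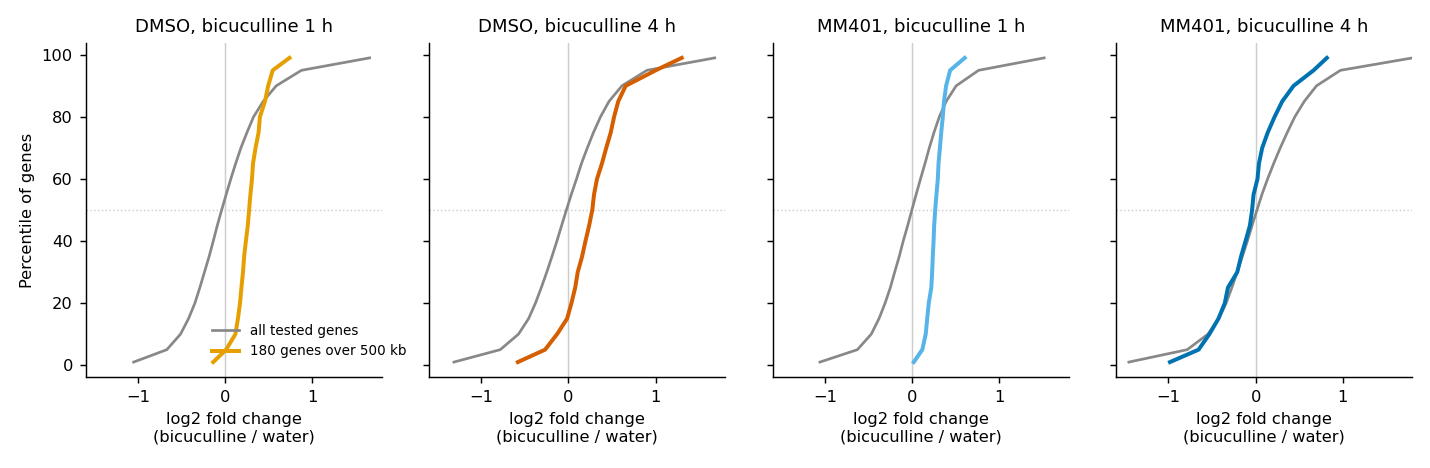
Percentile curves (1st to 99th) of the log2 fold change of bicuculline over water in the 4 comparisons, in grey for all tested genes and in colour for the 180 genes over 500 kb. The coloured curve lies above 0 over most of its length at 1 h in both pretreatments (172 and 179 of 180 values) and at 4 h in DMSO (147), and crosses 0 near its middle at 4 h in MM401 (76).

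Among signalling and cytoskeletal genes, Elmo1, an adaptor that works with Dock proteins to activate Rac, had the largest rise of the set in all 4 comparisons. It lies at chr13:20090506-20608356 on the plus strand (mm10). Gene positions are those of the deposited table, whose starts appear to count from 0: RefSeq's start was 1 base after the deposited one in 74 plus-strand genes of the set and equal to it in 0, while on the minus strand it equalled the deposited end in 53. Its level was 631, 544 and 509 CPM in DMSO with water, 1049, 1159 and 1300 CPM with bicuculline at 1 h and 1527, 1618 and 1570 CPM at 4 h. In MM401 it was 612, 532 and 604 CPM with water at 1 h, 635 and 663 CPM with water at 4 h, 1315, 1374 and 1053 CPM with bicuculline at 1 h and 1382, 1503 and 1279 CPM at 4 h. Every bicuculline library was above every water library, and in DMSO every 4 h library was also above every 1 h library. Elmo1 rose by log2 1.06 (SE 0.10, edgeR adjusted p 4.43e-08) and 1.49 (SE 0.11, adjusted p 1.73e-10) in DMSO, and 1.10 (SE 0.10, adjusted p 2.62e-08) and 1.10 (SE 0.12, adjusted p 2.08e-07) in MM401. Mast4, a microtubule-associated kinase at chr13:102732488-103334492 on the minus strand, was at 304, 251 and 239 CPM in DMSO with water, 406, 438 and 482 CPM at 1 h and 560, 595 and 575 CPM at 4 h of bicuculline. Those 3 groups did not overlap, and it rose by log2 0.74 (SE 0.095, edgeR adjusted p 1.81e-06) at 1 h and 1.12 (SE 0.095, adjusted p 2.56e-09) at 4 h. In MM401 Mast4 rose by log2 0.67 and 0.79, both called. Lpp, a LIM protein of focal adhesions, rose by 0.51, 0.75, 0.38 and 0.67 in DMSO at 1 h and 4 h and MM401 at 1 h and 4 h.

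Promoter sequence was read for genes with large rises or falls, to show the letters before an annotated start of each. The counts are over whole genes and do not say which start a change runs from. RefSeq's table (GRCm38.p6) held windows for 146 of the 180 genes, 2 of them through an older symbol. Shown 5′ to 3′ on the gene's strand are the 250 bases before RefSeq's start of Elmo1 at chr13:20090257-20090506, with the letters TCGTG, the core of the motif bound by Npas4 dimers, in capitals 163 bases before the start. Beside it are those of Mast4 at chr13:103334493-103334742, with TGACG, a CREB half-site, in capitals 92 bases before the start, and of Fstl5 at chr3:76074311-76074560, with both of its TGACG matches in capitals, one of them as the reverse complement CGTCA. The last is Cadps2, at chr6:23839422-23839671, which fell at 4 h. Elmo1, the largest riser, and Cadps2 both had 0 matches of TGACG. The table holds a further window of Elmo1, at chr13:20472740-20473039, and of Fstl5, at chr3:76075333-76075632, each with 0 matches of any of the motifs below.
Elmo1: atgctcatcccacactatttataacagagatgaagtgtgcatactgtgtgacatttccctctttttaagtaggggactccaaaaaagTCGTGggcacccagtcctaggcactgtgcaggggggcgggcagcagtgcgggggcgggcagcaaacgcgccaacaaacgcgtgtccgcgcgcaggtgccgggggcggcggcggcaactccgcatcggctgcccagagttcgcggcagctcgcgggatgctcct
Mast4: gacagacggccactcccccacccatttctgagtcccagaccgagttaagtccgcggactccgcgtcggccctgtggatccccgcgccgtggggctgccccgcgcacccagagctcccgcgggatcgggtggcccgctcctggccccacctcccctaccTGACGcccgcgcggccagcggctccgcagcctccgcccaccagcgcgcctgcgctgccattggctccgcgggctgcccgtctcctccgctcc
Fstl5: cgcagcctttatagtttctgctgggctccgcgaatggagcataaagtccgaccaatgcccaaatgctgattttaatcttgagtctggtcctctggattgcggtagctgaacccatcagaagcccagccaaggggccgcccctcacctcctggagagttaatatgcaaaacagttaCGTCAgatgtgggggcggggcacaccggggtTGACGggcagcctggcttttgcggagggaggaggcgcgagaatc
Cadps2: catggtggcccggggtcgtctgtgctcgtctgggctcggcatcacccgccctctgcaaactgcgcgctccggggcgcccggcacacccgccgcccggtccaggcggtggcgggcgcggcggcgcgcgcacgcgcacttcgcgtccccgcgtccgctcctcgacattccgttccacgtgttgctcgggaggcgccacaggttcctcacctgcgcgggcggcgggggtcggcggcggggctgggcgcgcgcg
Over windows of 300 bases (250 before and 50 after the start), searched on both strands, TGACG was found in 28 of the 146 genes (19.2%, against 23% of 27025 genes in the table). TCGTG was found in 36 (24.7%, against 18.1%), TGANTCA, the AP-1 motif, in 12 (8.22%, against 8.97%), and TGACGTCA, which contains TGACG, in 1, Clstn2 (0.685%, against 2.03%). Per window, with 233 windows of these genes and 32851 in all, the shares were 12.9% against 20.8% for TGACG, 16.7% against 16% for TCGTG, 5.15% against 7.81% for TGANTCA and 0.429% against 1.79% for TGACGTCA. The excess of TCGTG per gene was thus not seen per window. A match describes these letters in this window and is not a binding site.

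Sorcs3, Sorcs1 and Cntnap5b were called higher at 4 h than at 1 h of bicuculline in both pretreatments. Sorcs3, a VPS10-domain sorting receptor at chr19:48206024-48805505 on the plus strand, was at 605, 478 and 437 CPM in DMSO with water, 583, 614 and 690 CPM at 1 h and 1138, 1245 and 1251 CPM at 4 h of bicuculline. The 1 h libraries overlapped those with water, while every 4 h library was above both. Sorcs3 rose by log2 0.31 (SE 0.11, edgeR adjusted p 0.0259) at 1 h and 1.26 (SE 0.11, adjusted p 5.92e-09) at 4 h. Its relative Sorcs1, at chr19:50143300-50678646 on the minus strand, was at 367, 321 and 314 CPM with water, 377, 400 and 426 CPM at 1 h and 666, 691 and 673 CPM at 4 h, with no overlap at either time. Cntnap5b, a contactin-associated adhesion protein at chr1:99772764-100485942 on the plus strand, was at 150, 118 and 118 CPM with water, 182, 178 and 200 CPM at 1 h and 339, 299 and 325 CPM at 4 h. The 3 groups of Cntnap5b did not overlap, with log2 fold changes of 0.54 (SE 0.089, edgeR adjusted p 4.22e-05) and 1.32 (SE 0.09, adjusted p 9.74e-11). In MM401 Cntnap5b rose by 0.49 at 1 h, and its 1 h values lay at percentile 94.4 (DMSO) and 97.2 (MM401) of the set, the gene itself counted. In MM401 at 4 h Cntnap5b rose by 0.91, Sorcs3 by 0.76 and Sorcs1 by 0.72. The 1 h call of Sorcs3 was lost in DMSO without bicuculline replicate 3 or water replicate 2 or 3 (0.23 to 0.30), and in MM401, where it was 0.33, without bicuculline replicate 1 or 2 or water replicate 2.

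Aff2, a nuclear protein of the AF4/FMR2 family on the X chromosome, at chrX:69360330-69868037, was not called at 1 h in DMSO (log2 0.13, edgeR adjusted p 0.284). Its level was 303, 243 and 233 CPM with water, 286, 272 and 292 CPM at 1 h and 543, 526 and 488 CPM at 4 h. In DMSO only the 4 h libraries stood apart from water, by log2 1.00 (SE 0.095, edgeR adjusted p 1.45e-08). In MM401 Aff2 was at 264, 222 and 231 CPM with water and 295, 324 and 273 CPM with bicuculline at 1 h, which do not overlap. It rose there by 0.32 (edgeR adjusted p 0.0103), a call lost without bicuculline replicate 2 or water replicate 2 (0.25 and 0.27), and by 0.73 at 4 h. Fstl5, a secreted follistatin-like protein, was at 270, 220 and 211 CPM with water, 295, 259 and 305 CPM at 1 h and 509, 462 and 454 CPM at 4 h. The 1 h libraries of Fstl5 overlapped water and the 4 h libraries did not, with log2 fold changes of 0.29 and 1.02 in DMSO and 0.34 and 0.79 in MM401, all called. Ptprk, a receptor tyrosine phosphatase, rose by 0.49 and 1.02 in DMSO and 0.41 and 0.47 in MM401, and Sgcz, a sarcoglycan of the dystrophin complex, by 0.43, 1.06, 0.40 and 0.67. The 1 h calls of Sgcz were lost in 4 of 6 fits that left out 1 library in each pretreatment (0.36 to 0.42 and 0.32 to 0.41). That of Fstl5 in DMSO was lost without bicuculline replicate 3 or water replicate 2 or 3 (0.24 to 0.28), and those of Ptprk in MM401 without bicuculline replicate 2 at 1 h (0.33) and either water library at 4 h (0.44).

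Mecom, a zinc-finger transcription factor, was near the limit of 1 CPM. It was at 0.718, 0.798 and 0.677 CPM in DMSO with water, 1.29, 1.15 and 1.08 CPM at 1 h and 2.09, 1.64 and 1.69 CPM at 4 h, with no overlap. The groups where Mecom was high thus helped it to pass the limit, and its rise is not independent of how it was chosen. It rose by log2 0.68 (SE 0.22, edgeR adjusted p 0.0149) and 1.29 (SE 0.21, adjusted p 3.14e-05). In MM401 they were 0.59 (SE 0.22, edgeR adjusted p 0.0403) and 0.79 (SE 0.24, adjusted p 0.0105). Its call was lost in DMSO at 1 h without bicuculline replicate 1 (0.61), in MM401 at 1 h without any of 5 of 6 libraries (0.48 to 0.66) and in MM401 at 4 h without water replicate 2 (0.29), the water libraries being 1.4 and 0.619 CPM. Rarb, a retinoic acid receptor, rose by 0.61 and 0.56 in DMSO and 0.52 in MM401 at 1 h, and was at 0.08 in MM401 at 4 h, not called. Dlgap2, a postsynaptic scaffold, rose by 0.42, 0.46 and 0.50 and was at 0.03 in MM401 at 4 h, not called.

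**Figure D3:**
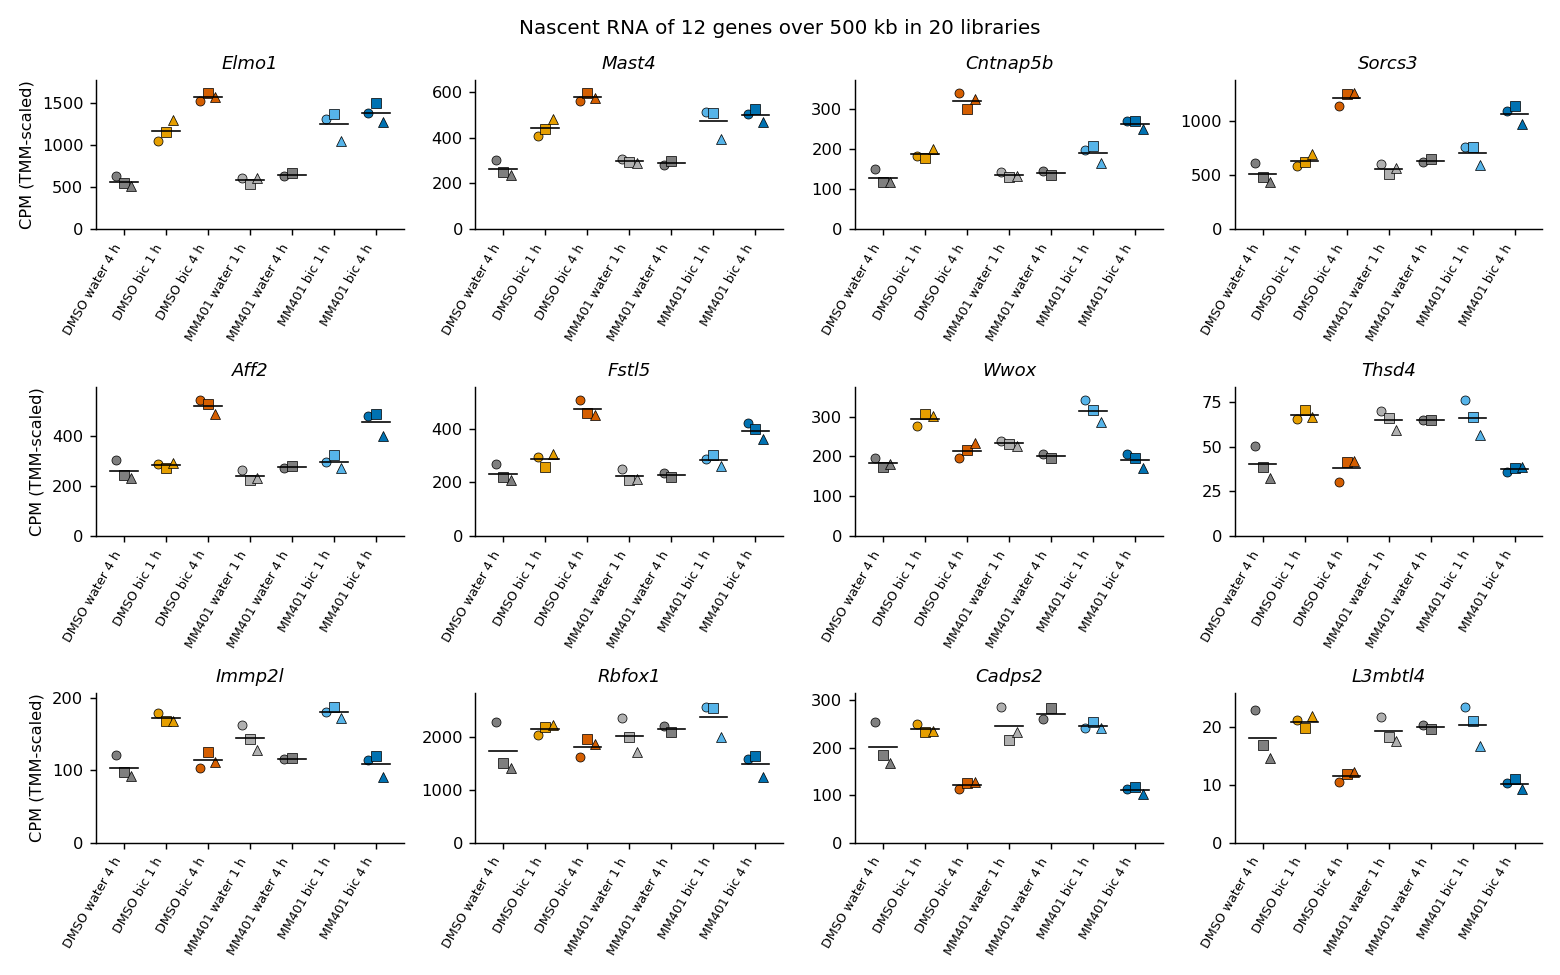
CPM by library for 12 of the genes over 500 kb in the 7 groups, with points for libraries, bars for group means and axes from 0. Elmo1 and Mast4 are raised at 1 h and 4 h, Sorcs3, Aff2 and Fstl5 more at 4 h than at 1 h, Wwox, Thsd4 and Immp2l at 1 h in DMSO, and Cadps2 and L3mbtl4 are lowered at 4 h.

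Some long genes fell at 4 h, fewer than rose in DMSO (9 against 94) and more than rose in MM401 (45 against 29, but 24 against 31 without bicuculline replicate 3). Of all tested genes 25.5% were called lower and 23.7% higher in DMSO, and 21.7% and 23% in MM401. In DMSO falls and rises were near level with plain library totals, and falls were more with the gene length offset. Cadps2, which primes dense-core vesicles for release, lies at chr6:23262773-23839421 on the minus strand. It was at 255, 184 and 168 CPM in DMSO with water, 250, 234 and 236 CPM at 1 h and 113, 125 and 128 CPM at 4 h of bicuculline. In MM401 it was at 286, 217 and 234 CPM with water at 1 h, 261 and 283 CPM with water at 4 h, 242, 254 and 242 CPM with bicuculline at 1 h and 112, 118 and 103 CPM at 4 h. Every 4 h bicuculline library was below every other library. Cadps2 fell by 0.73 on the log2 scale in DMSO at 4 h (SE 0.12, edgeR adjusted p 5.16e-05) and by 1.29 in MM401 at 4 h (SE 0.13, adjusted p 2.66e-07), and was not called at 1 h (0.25 and 0.003). L3mbtl4, an MBT-domain chromatin reader at chr17:68273796-68780086 on the plus strand, was at 22.8, 16.8 and 14.6 CPM with water, 21.1, 19.7 and 21.8 CPM at 1 h and 10.5, 11.9 and 12.2 CPM at 4 h in DMSO. Its 4 h libraries were below all others, and it fell by 0.64 in DMSO (edgeR adjusted p 0.000679) and by 0.98 in MM401 (adjusted p 3.53e-05).

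Kalrn, a guanine nucleotide exchange factor of dendritic spines at chr16:33969072-34514027, was at 1462, 1106 and 1018 CPM in DMSO with water and 886, 983 and 997 CPM with bicuculline at 4 h. Every bicuculline library was below every water library. It fell by 0.32 in DMSO (edgeR adjusted p 0.0256) and by 0.76 in MM401 (adjusted p 5.59e-05), where the levels were 1448 and 1410 CPM with water and 855, 881 and 792 CPM with bicuculline. The uncharacterised genes A830018L16Rik and 5730522E02Rik fell by 0.57 and 0.44 in DMSO and by 0.84 and 0.71 in MM401 at 4 h, and Ptprn2, a phosphatase-like protein of dense-core vesicles, by 0.27 and 0.49. Without replicate 1 of water the DMSO calls of 5730522E02Rik (-0.27), Kalrn (-0.15) and Ptprn2 (-0.18) were lost, and those of Kalrn (-0.27) and Ptprn2 (-0.24) also without bicuculline replicate 1. Dach2, a dachshund-family cofactor on the X chromosome, was at 40.9, 33 and 31.4 CPM in DMSO with water, 30.7, 25.2 and 28.1 CPM at 1 h and 28.6, 28.9 and 26.1 CPM at 4 h. All 6 bicuculline libraries of Dach2 were below the 3 water libraries, by 0.32 and 0.33 on the log2 scale, but both calls were lost without replicate 1 of water (-0.20 and -0.21) or bicuculline replicate 3 of the group compared (-0.31 and -0.29), and the 1 h call also without bicuculline replicate 2 (-0.25). In MM401 Dach2 fell by 0.29 at 1 h, a call lost in 4 of 6 fits that left out 1 library (-0.16 to -0.32), and by 0.51 at 4 h.

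In MM401 at 4 h Iqcm fell by 0.99, Fam19a1, a secreted chemokine-like protein, by 0.90 and Erc2, a scaffold of the presynaptic active zone, by 0.60. In DMSO the values of Iqcm and Fam19a1 at 4 h were -0.29 and -0.34, neither called. Edil3, a secreted integrin-binding protein and the shortest gene of the set, was the other gene lower at 1 h in DMSO. It was at 530, 432 and 414 CPM with water at 4 h, 392, 333 and 361 CPM with bicuculline at 1 h and 502, 498 and 431 CPM with bicuculline at 4 h. Its 1 h libraries were below all others of that arm, by -0.34 (SE 0.096, edgeR adjusted p 0.00607), while in MM401, where water was also taken at 1 h, the value was 0.07 and not called.

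Some genes rose at 1 h in DMSO and not at 4 h. Thsd4, a secreted ADAMTS-like protein at chr9:59966930-60511035, was at 50.1, 38.5 and 32.3 CPM in DMSO with water at 4 h, 65.4, 70.6 and 66.5 CPM with bicuculline at 1 h and 30.1, 41.5 and 41.7 CPM at 4 h. The 1 h libraries stood above the rest, with a log2 fold change of 0.75 (SE 0.14, edgeR adjusted p 0.00049), against -0.09 at 4 h. In MM401, with water at the same time, Thsd4 was at 70, 66.1 and 59.3 CPM with water and 76.1, 66.6 and 56.3 CPM with bicuculline at 1 h, which overlap (0.02, not called), and it fell by 0.80 at 4 h. Immp2l, a peptidase of the mitochondrial inner membrane at chr12:41024089-41955588, was at 122, 97.3 and 92.1 CPM with water, 179, 168 and 169 CPM at 1 h and 104, 126 and 112 CPM at 4 h in DMSO. It rose by 0.73 at 1 h (SE 0.11, edgeR adjusted p 2.21e-05), was at 0.14 at 4 h, not called, and gained a call there without replicate 1 of water (0.27). In MM401 at 1 h Immp2l rose by 0.32, a call lost in 4 of 6 fits that left out 1 library (0.24 to 0.32) and whose direction turned with the gene length offset (-0.01). The genes overlapping Immp2l, mainly Lrrn3, held 68.9% of its own count.

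St6galnac3, a sialyltransferase at chr3:153202508-153725133, was the 1 gene called higher at 1 h and lower at 4 h in both pretreatments. It was at 133, 110 and 109 CPM with water, 137, 156 and 157 CPM at 1 h and 93.6, 101 and 98 CPM at 4 h in DMSO, where the 3 groups did not overlap. It rose by 0.36 and then lay 0.27 below water in DMSO, and its values in MM401 were 0.25 and -0.54. The 4 h call in DMSO was lost without replicate 1 of water (-0.17), and the 1 h call in MM401 without bicuculline replicate 1 or 2 or water replicate 3 (0.19 to 0.22) and turned direction with the gene length offset (-0.04). Stpg2, a sperm-tail repeat protein at chr3:139205892-139710299, was at 9.84, 8.05 and 7.01 CPM with water, 12, 10.8 and 11.3 CPM at 1 h and 6.65, 6.26 and 5.4 CPM at 4 h in DMSO. These groups did not overlap, with log2 fold changes of 0.46 (edgeR adjusted p 0.00573) and -0.44 (adjusted p 0.00772), the second lost without bicuculline replicate 3 (-0.36) or water replicate 1 (-0.31). In MM401 Stpg2 was at 0.14 at 1 h, not called, and fell by 0.87 at 4 h.

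Some genes were called higher at 1 h and lower at 4 h in MM401. Smyd3, a methyltransferase, had 0.26 and -0.58, Mctp1, a C2-domain membrane protein, 0.30 and -0.54, and Grid1, a delta-type glutamate receptor, 0.25 and -0.42. So were St6galnac3, Lrba (0.20 and -0.34), Cdk14 (0.29 and -0.19), Exoc4 (0.24 and -0.19) and Pard3 (0.30 and -0.18). The 1 h calls of Smyd3, Mctp1, Grid1 and Lrba were each lost in 4 of 6 fits that left out 1 library, and that of Exoc4 in 1. At 4 h those of Cdk14 and Exoc4 were lost in 5 of 5 and that of Pard3 in 3. With the gene length offset the 1 h values of Cdk14, Exoc4, Grid1, Lrba and Smyd3 fell below 0, as did that of Lrba with plain library totals.

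Wwox and Fhit, both at fragile sites, were called higher at 1 h in both pretreatments. Wwox, an oxidoreductase with WW domains at chr8:114439651-115352712, was at 197, 174 and 182 CPM in DMSO with water, 276, 307 and 303 CPM at 1 h and 195, 215 and 233 CPM at 4 h. Only the 1 h libraries stood apart from water, by 0.68 (SE 0.079, edgeR adjusted p 4.27e-07). In MM401 Wwox was at 240, 232 and 227 CPM with water and 342, 317 and 286 CPM with bicuculline at 1 h, a rise of 0.44, and at -0.08 at 4 h, not called. The 4 h call in DMSO (0.22) was lost in 4 of 6 fits that left out 1 library (0.16 to 0.22), and its direction turned with plain totals (-0.05) and with the gene length offset (-0.10). Fhit, a nucleotide hydrolase, rose by 0.50, 0.28 and 0.37 in DMSO at 1 h and 4 h and MM401 at 1 h, the latter 2 turning to -0.08 and -0.02 with the length offset, and was at 0.12 in MM401 at 4 h, not called. Macrod2, an ADP-ribose hydrolase, was not called at 1 h. It was called in 1 comparison, MM401 at 4 h (-0.46), a call lost without bicuculline replicate 3 (-0.33) or water replicate 1 (-0.41).

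Some of the longest and most abundant genes were not called in DMSO at either time with all 3 water libraries. Ptprd, a receptor tyrosine phosphatase and the longest gene, was at 6165, 4052 and 3646 CPM in DMSO with water, 5494, 5220 and 5605 CPM at 1 h and 5637, 5796 and 5260 CPM at 4 h. The first water library was above all 6 bicuculline libraries and the others below them all. Ptprd had log2 values of 0.24 and 0.27 in DMSO, neither called (edgeR adjusted p 0.233 and 0.164), and of 0.50 and 0.53, both called, without that library. Lsamp, an IgLON adhesion molecule, was at 5651, 4098 and 3897 CPM with water, 5221, 5202 and 5401 CPM at 1 h and 5482, 5736 and 5272 CPM at 4 h, again with the first water library high among or above the bicuculline libraries. Lsamp had values of 0.21 and 0.27 that were not called and of 0.40 and 0.46 that were without that library. Dmd, which encodes dystrophin, at chrX:82948869-85205050, was at 935, 725 and 677 CPM with water, 967, 902 and 999 CPM at 1 h and 1192, 1172 and 1089 CPM at 4 h. The 1 h libraries of Dmd overlapped water and the 4 h libraries were above it, with values of 0.30 (edgeR adjusted p 0.0302) and 0.56 (adjusted p 0.000178), the first lost in 4 of 6 fits that left out 1 library and turning to -0.10 with the length offset. In MM401 Dmd was at 0.29 at 1 h, called but lost in 4 of 6 such fits and turning to -0.13 with the length offset, and at 0.19 at 4 h, not called.

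Rbfox1, a neuronal splicing regulator at chr16:5884792-7412480, was at 2289, 1503 and 1422 CPM in DMSO with water, 2031, 2196 and 2233 CPM at 1 h and 1620, 1955 and 1862 CPM at 4 h. The groups overlapped through the first water library, and neither value was called (0.31 and 0.06), while without that library the 1 h value was 0.56 and called. In MM401 at 4 h Rbfox1 was at 2207 and 2096 CPM with water and 1579, 1641 and 1253 CPM with bicuculline, which do not overlap, a fall of 0.53 (edgeR adjusted p 0.017) whose call was lost without bicuculline replicate 3 (-0.42) or water replicate 1 (-0.51). Calls in MM401 at 4 h were also lower for Nrg3, a ligand of ErbB4 (-0.51), Csmd1, a complement regulator (-0.41), Opcml, an IgLON molecule (-0.37), and Auts2, a transcriptional regulator (-0.35). Each of these 4 was lost in 3 or 4 of 5 fits that left out 1 library. Cntnap2, an adhesion protein, and Dlg2, a postsynaptic scaffold, were called in DMSO at 4 h alone, both at 0.51, the call of Dlg2 being lost without water replicate 2 (0.41) or 3 (0.35). Erbb4, a receptor tyrosine kinase, had 0.41 in DMSO at 4 h, lost without water replicate 2 or 3 (0.33 and 0.31), and 0.32 in MM401 at 1 h, lost in 4 of 6 fits and turned to -0.03 by the length offset. Magi2, a scaffold, was called in DMSO at 4 h alone (0.32), lost in 5 of 6 fits and turned to -0.02 by the length offset. Pcdh9, a protocadherin, rose in all 4 (0.40, 0.82, 0.36 and 0.49), with calls lost in 3 of 6 fits at 1 h in each pretreatment and, in MM401 at 4 h, without water replicate 2 (0.42).

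Counts by role are read against all tested genes, of which 20%, 23.7%, 18.1% and 23% were called higher and 24.5%, 25.5%, 21.8% and 21.7% lower in DMSO at 1 h and 4 h and MM401 at 1 h and 4 h, and against 100, 94, 84 and 29 higher and 2, 9, 1 and 45 lower of the 180. The largest group was adhesion. Of 42 adhesion genes, 19 were called higher and 1 lower in DMSO at 1 h, 25 and 0 at 4 h, 14 and 0 in MM401 at 1 h, and 5 and 8 in MM401 at 4 h, with medians of 0.29, 0.30, 0.25 and -0.04. In the fit without the first DMSO water library 21.3% and 22.9% of all tested genes, and 86.7% and 68.9% of the 180, were called higher at 1 h and 4 h, and the counts by role are read against these. The DMSO counts of adhesion genes without the first water library were 37 and 1 at 1 h and 33 and 0 at 4 h. Of 22 signalling and cytoskeletal genes, 13, 15 and 15 were called higher in the first 3 comparisons and 0, 1 and 0 lower, and in MM401 at 4 h 9 were called higher and 4 lower, with a median of 0.20. Of 18 scaffolds, 7, 11 and 8 were called higher in the first 3 and none lower, and 2 each way in MM401 at 4 h. Of 17 genes of transcription and chromatin, 13, 12 and 12 were called higher and 1, 2 and 1 lower in the first 3, and 7 higher and 5 lower in MM401 at 4 h. Without that water library the counts higher in DMSO at 1 h and 4 h were 18 and 15 for signalling, 16 and 16 for scaffolds and 15 and 12 for transcription and chromatin, with 0 lower but for 1 of the last group at 4 h. Nfia, Npas3, Sox6, Foxp2 and Zbtb20, all transcription factors, rose in all 4 comparisons, by 0.23 to 0.61. In DMSO at 1 h the call of Nfia was lost without replicate 1 of water (0.16) and that of Foxp2 without bicuculline replicate 1 or water replicate 2 (0.22 and 0.23), and in MM401 at 4 h those of Npas3 and Zbtb20 were lost without either water library (0.25 to 0.29). Npas3 was at 1240, 1296 and 1413 CPM with water and 1605, 1656 and 1665 CPM at 1 h in DMSO, with no overlap.

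The 26 enzymes and fragile-site genes had 20 called higher in DMSO at 1 h, 12 at 4 h, 13 in MM401 at 1 h and 3 in MM401 at 4 h, with 0, 1, 0 and 7 lower. Of 12 receptor phosphatases, kinases and growth factors, 6, 7 and 6 were called higher and 0, 1 and 0 lower in the first 3 comparisons, and 2 each way in MM401 at 4 h. The 10 channels and transporters had 6, 3 and 6 called higher and 0 lower in the first 3, and 0 higher and 3 lower in MM401 at 4 h, with a median of -0.27. Of 5 RNA-binding genes 2, 3 and 2 were called higher and 0 lower in the first 3, and 2, Rbfox1 and Celf2 (-0.45), lower in MM401 at 4 h, the call of Celf2 being lost in 3 of 5 fits that left out 1 library. The 3 long noncoding RNAs had 0 called at 1 h and 1 lower at 4 h in each pretreatment, and the other 25 genes had 14, 6, 8 and 1 called higher and 0, 3, 0 and 11 lower. The counts higher in DMSO at 1 h and 4 h without the first water library were 23 and 17 for enzymes and fragile-site genes, 12 and 10 for receptor phosphatases, kinases and growth factors, 9 and 6 for channels and transporters, 5 and 4 for RNA-binding genes, 3 and 2 for noncoding RNAs and 18 and 9 for the others, with 0 lower but for 2 of the others at 4 h. Role medians in that fit ran from 0.36 to 0.44 at 1 h and from 0.20 to 0.52 at 4 h. Roles of 37 genes were assigned after their values were seen.

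Between 1 h and 4 h of bicuculline the genes moved in both directions in DMSO. At 4 h 24 of the 180 were called higher than at 1 h and 33 lower, or 31.7%, where 34.2% of all tested genes were called (19.1% higher, 15.2% lower), with a median of -0.01. Libraries were separate in 51 that were higher and 55 that were lower (23.4% and 19.9% of all tested genes). With plain library totals the split was 25 and 64, and with the length offset 54 and 53. Shares over all tested genes in those fits are not given here, so these counts are not read against a background. Sorcs3 (0.95), Aff2 (0.87), Cntnap5b (0.78) and Sorcs1 (0.76) had the largest increases, and Cadps2 (-0.98), Stpg2 (-0.90), L3mbtl4 (-0.85) and Thsd4 (-0.84) the largest decreases. In MM401, 9 were called higher and 89 lower, or 54.4%, where 33.6% of all tested genes were called (17.5% higher, 16% lower), with a median of -0.29 against 0.03 over all tested genes and 154 values below 0. Libraries were separate in 12 that were higher and 93 that were lower (24.2% and 20.8% of all tested genes). With the length offset the calls were 45 and 53, again with no share over all tested genes to read them against. The largest increases were in Aff2 (0.62), Sorcs3 (0.60), Fstl5 and Cntnap5b (both 0.47), and the largest decreases in Cadps2 (-1.15), L3mbtl4 and Stpg2, followed by 5730522E02Rik (-0.95). The 9 genes higher at 4 h than at 1 h in both pretreatments (12.9% of all tested genes were) were Adgrl3, Aff2, Cntnap5b, Edil3, Fstl5, Lpp, Ptprk, Sorcs1 and Sorcs3, and 33 were lower in both (11.3%).

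Time in water alone moved few. MM401 with water at 4 h against 1 h gave 1 call of 180, where 0.867% of all tested genes were called. It was Iqcm, at 6, 6.25 and 5.13 CPM at 1 h and 8.84 and 10.1 CPM at 4 h, which do not overlap, a rise of 0.71 (SE 0.14, edgeR adjusted p 0.0144). The call was lost without water 1 h replicate 3 (0.63) or either 4 h library (0.80 and 0.62). Libraries were separate in 34 genes that were higher and 18 that were lower (15.7% and 16.2% of all tested genes). The median of the set in that comparison was 0.07, against -0.01 over all tested genes.

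The responses in the 2 pretreatments were set against each other gene by gene. At 1 h the log2 fold changes in DMSO and MM401 had the same sign in 173 of 180 genes (Pearson r 0.616, Spearman coefficient 0.508), and at 4 h in 109 (Pearson r 0.872, Spearman coefficient 0.829). With the first DMSO water library left out the same sign was held by 178 genes at 1 h (Pearson r 0.441, Spearman coefficient 0.288) and 93 at 4 h (Pearson r 0.759, Spearman coefficient 0.676). These are across genes, which share libraries and are not independent replicates. At 4 h the order of genes was thus alike while the values in MM401 were lower: the difference of the 2 responses had a median of -0.37, against 0.03 over all tested genes, and was below 0 in 167 genes. None of the 180 differences was called by edgeR, where 0% of all tested genes were, but 103 had an unadjusted p under 0.05 (15% of all tested genes), and DESeq2 called 59, all lower in MM401, with 23 of the 180 given no adjusted p. DESeq2's own filter left 2075 genes with an adjusted p in that comparison, and it called 22.7% of them. Without replicate 1 of DMSO with water edgeR called 110, all lower in MM401, where 9.15% of all tested genes were called (2.36% higher, 6.79% lower), and the median was -0.51. Without that library and MM401 bicuculline 4 h replicate 3, a choice made after seeing the data, 68 were called (4.28% of all tested genes). At 1 h the difference was taken against water at 4 h in both pretreatments. Its MM401 side is thus not the 1 h response given above, which used water at 1 h. For that difference edgeR called 0 (0% of all tested genes), with 9 at an unadjusted p under 0.05 (7.82%) and 0 by DESeq2, and a median of -0.08. Leaving out replicate 1 of DMSO with water gave 3 calls (0.572% of all tested genes) and a median of -0.22, with 159 of the 180 below 0.

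Set directly against each other at 4 h of bicuculline, all 180 genes were lower in MM401 than in DMSO, with a median of -0.19, against -0.003 over all tested genes, and in 105 every MM401 library was below every DMSO library (11.3% of all tested genes). In 0 was every one above (6.3%). None was called by edgeR (0% of all tested genes), 39 had an unadjusted p under 0.05 (7.72%) and DESeq2 called 0. Same-numbered libraries of these groups deviated together (correlations of 0.15, 0.107 and 0.172), and with the replicate number as a block edgeR called 0 (0% of all tested genes), with 91 at an unadjusted p under 0.05 (9.94%). With the block and these groups alone, a choice made after seeing the data, 7 were called, all lower in MM401, where 0.523% of all tested genes were, and 121 had an unadjusted p under 0.05 (15.3%). In water at 4 h the median was in the other direction, at 0.17, with 156 of 180 values above 0. There edgeR called 0 of the 180 (0.0826% of all tested genes), 37 had an unadjusted p under 0.05 (12.9%) and DESeq2 called 2 (1.03% of the genes it gave an adjusted p). Without replicate 1 of DMSO edgeR called 63 higher and 6 lower (4.43% and 3.07% of all tested genes) and the median was 0.31. At 1 h of bicuculline the median was 0.08, with 0 called by edgeR (0.0059% of all tested genes), 0 at an unadjusted p under 0.05 (3.18%) and 0 by DESeq2. Libraries were separate in 25 genes higher and 8 lower in water at 4 h (11.6% and 14.5% of all tested genes), and in 2 higher and 0 lower at 1 h of bicuculline (3.25% and 3.9%).

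**Figure D4:**
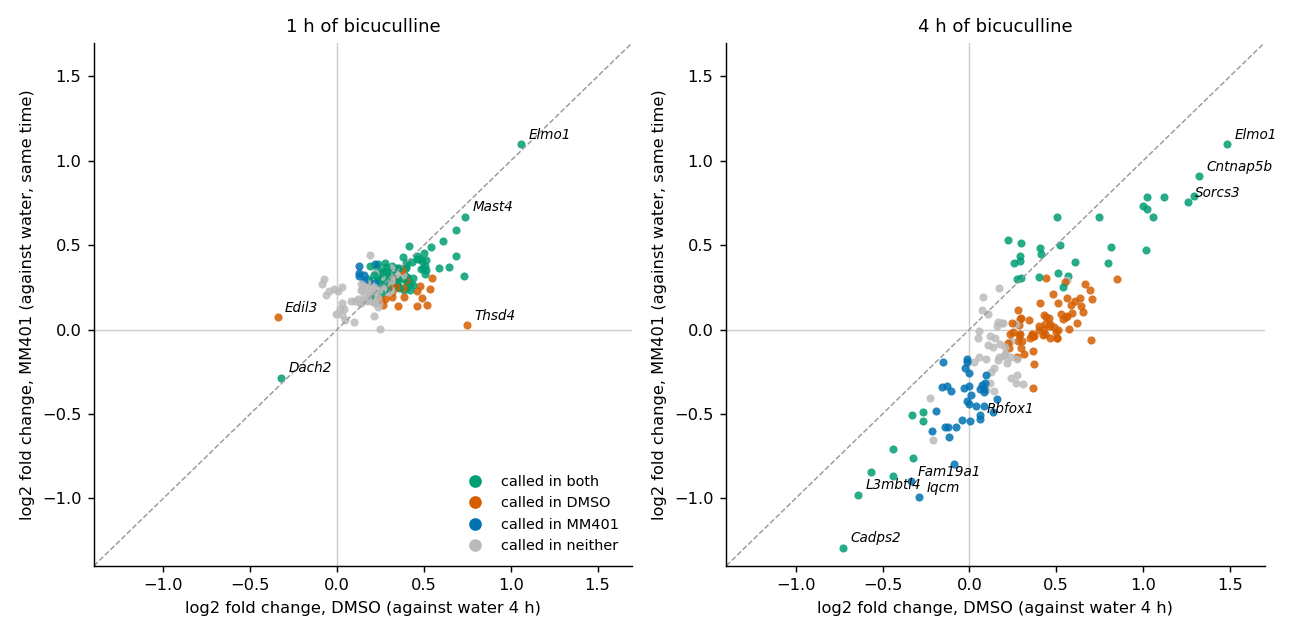
Log2 fold change of bicuculline over water for each of the 180 genes in DMSO (x axis) and MM401 (y axis), at 1 h and at 4 h, with a dashed line of equality and colours for genes called in both, either or neither. At 4 h most points lie below the line (167 of 180), with Elmo1 at the upper right and Cadps2 at the lower left.

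In all, 24 of the 180 genes were called higher in all 4 bicuculline comparisons, or 13.3%, where 8.62% of all tested genes were. They were Arhgap6, Cntnap5b, Cpq, Dock1, Elmo1, Foxp2, Fstl5, Lpp, Lrmda, Magi1, Mast4, Mecom, Nfia, Npas3, Pcdh9, Ptprk, Ptprm, Rad51b, Sgcz, Sorcs1, Sorcs3, Sox6, Sugct and Zbtb20. Mecom among them passed the limit on level with the help of its bicuculline libraries. Of the 24, 8 kept all 4 calls whichever single library was left out: Cntnap5b, Dock1, Elmo1, Lpp, Mast4, Sorcs1, Sox6 and Sugct. At 4 h, 9, or 5%, were lower in both pretreatments (16.7% of all tested genes were): 5730522E02Rik, A830018L16Rik, Cadps2, Dach2, Kalrn, L3mbtl4, Ptprn2, St6galnac3 and Stpg2. Of these, A830018L16Rik, Cadps2 and L3mbtl4 kept both calls in every such fit, and without replicate 1 of DMSO with water 3 were lower in both (15.4%). Gene by gene, 59 of 102 calls in DMSO at 1 h, 62 of 103 at 4 h, 43 of 85 in MM401 at 1 h and 41 of 74 at 4 h were kept in every such fit. At 1 h, 76, or 42.2%, were higher in both (13.2% of all tested genes). Without replicate 1 of DMSO with water 111 were (13.9%), 72 of them among the 76. No call was made in any bicuculline comparison for 17, among them Ptprd, Lsamp, Tenm2, Dlgap1, Anks1b and Snhg14, and for 1 without that library. The share of all tested genes with no call in any of these comparisons is not given here. The counts of genes with no call are therefore not read against a background.

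Shorter genes were set beside them by length class. In DMSO at 1 h the median log2 fold change was -0.19 for genes under 10 kb, -0.10 for 10 to 50 kb, 0.07 for 50 to 100 kb, 0.17 for 100 to 250 kb, 0.22 for 250 to 500 kb and 0.27 for the 204 tested genes of 500 kb or more, those with left-out prefixes included. In MM401 at 1 h the medians of the same classes ran from -0.04 and -0.09 to 0.23 and 0.26, and in DMSO at 4 h from -0.19 and -0.06 to 0.21 and 0.27. The DMSO medians without the first water library ran from -0.26 under 10 kb to 0.32 at 250 to 500 kb and 0.41 at 500 kb or more at 1 h, and from -0.26 to 0.28 and 0.38 at 4 h. In MM401 at 4 h the classes lay between -0.05 and 0.10 with no such order. Across the 180 genes, which share libraries, the Pearson correlation between log2 length and log2 fold change was 0.041, 0.053, -0.008 and -0.048 in DMSO at 1 h and 4 h and MM401 at 1 h and 4 h, and 0.152 and 0.111 in DMSO without that library. The 22 long genes with left-out prefixes had medians of 0.24, 0.27, 0.25 and -0.21, beside 0.28, 0.27, 0.27 and -0.04 for the 180. Without that library they had 0.43 and 0.47 in DMSO, beside 0.41 and 0.37.

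**Figure D5:**
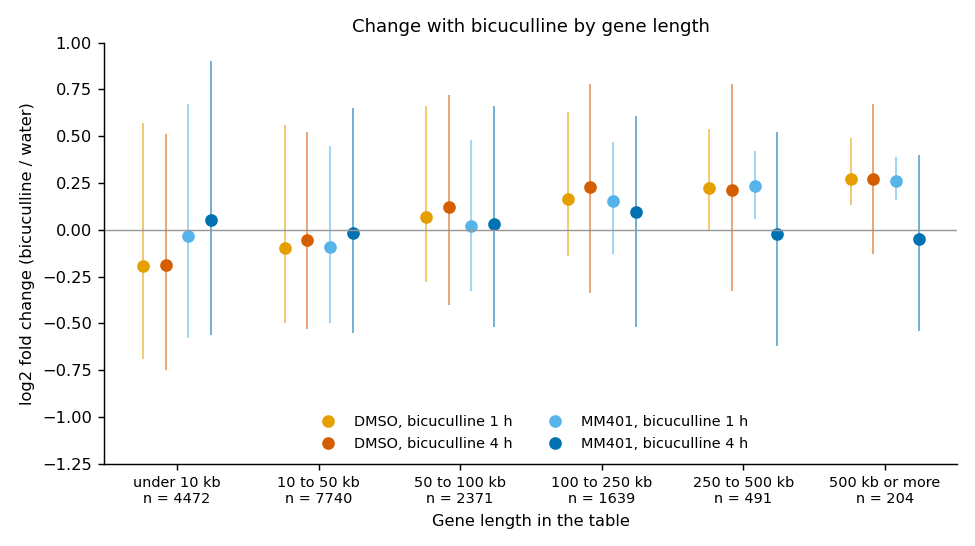
Median (points) and 10th to 90th percentile (lines) of the log2 fold change of bicuculline over water in 6 classes of gene length, in the 4 comparisons, with the number of genes in each class. In DMSO the medians run from -0.19 under 10 kb to 0.27 at 500 kb or more at both times, and at 4 h in MM401 they lie between -0.05 and 0.10.

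Genes of transcription elongation, on which long genes depend, were read from a list of 56, of which 55 were tested. In DMSO at 1 h 10 were called higher and 14 lower, and at 4 h 19 and 14. In MM401 the counts were 10 and 9 at 1 h and 10 and 11 at 4 h. The share called was 43.6%, 60%, 34.5% and 38.2% in DMSO at 1 h and 4 h and MM401 at 1 h and 4 h, where 44.6%, 49.2%, 39.9% and 44.6% of all tested genes were. Leaving out the first DMSO water library gave DMSO counts of 11 and 14 at 1 h and 19 and 11 at 4 h. Ell2, a subunit of the super elongation complex, rose by 0.99, 1.23, 0.86 and 0.85, and Aff1, its scaffold, by 0.85, 0.77, 0.60 and 0.80. Other genes of the list did not rise with them. Mllt1 fell by 0.36, 0.58, 0.48 and 0.50, all called, and Cdk9 was called lower at 4 h in both pretreatments (-0.29 and -0.36). Mllt3 was called lower in DMSO at 1 h (-0.20) and higher at 4 h (0.32). Top1, the topoisomerase that relieves supercoils ahead of the polymerase, rose by 0.26, 0.67, 0.42 and 0.43. Supt4a, a subunit of DSIF, fell by 0.47, 0.35, 0.56 and 0.41. The part of any of these in the values of the long genes was not tested.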

How the data were processed

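Nascent RNA counts per gene were deposited by the authors as 1 table of raw counts for 21 libraries. The submitters' processing notes name Bowtie2, UMI-tools, featureCounts, deepTools, DESeq2 and mm10, without versions, roles or order. Of 1056 genes lying inside another on the same strand, 1056 were at 0, and of 712 on the opposite strand 64 were, as counts have when strand is used and reads shared by overlapping same-strand genes are dropped. Groups came from the labels.

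Counts were filtered with filterByExpr (minimum count 10, minimum total 15) and tested with edgeR 4.0.16 in R 4.3.3 (TMM, robust quasi-likelihood, 7 groups in 1 fit, 12 comparisons), with Benjamini-Hochberg adjustment over 16959 genes and a threshold of 0.05. The common biological coefficient of variation was 8.77%. Data were simulated for DMSO at 1 h with genes drawn independently, the same dispersion for every gene and few genes changed. There 64.6% of genes changed by 0.5 (log2) and 92.7% of those changed by 1 were recovered, and 6.13% of calls were false. The simulation held no shift shared by the long genes of a library, so that rate is not one for their calls. DESeq2 1.42.0 was an alternative. Replicates of 1 group differed beyond counting error, with chi-square per degree of freedom of 6.4 to 82.7. With these depths the spread between replicates and not counting limits precision.

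Same-numbered libraries were read as pairs, from the correlations of their deviations alone, in 1 of 7 pairs of groups with 3 shared numbers (bicuculline at 4 h in DMSO and MM401), where every correlation was over 0.1. The members and lists were chosen with earlier results of these data known. Named genes were up to 6 per direction in each bicuculline comparison, and up to 4 between times, by log2 fold change among called genes whose libraries did not overlap, those called in other comparisons, a list of 19 well-known long genes, those near the limits, and those called in opposite directions at 1 h and 4 h. Other named genes were chosen after their values were seen. Alternatives were plain library totals, a gene length offset, no filter, the shallow library, a replicate block, each comparison's groups alone, another reference, stricter limits, and leaving out each library. Results of some genes are not reported here.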

Additional observations from a re-analysis of the deposited data

Results flagged for a closer look

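Ctnnd2, which encodes delta-catenin, a partner of cadherins, had values of opposite sign at 4 h in the 2 pretreatments, neither of them called. In DMSO it was at 2272, 1932 and 1939 CPM with water and 2345, 2301 and 2302 CPM with bicuculline, all 3 bicuculline libraries being higher, with a log2 fold change of 0.18. In MM401 it was at 2168 and 2172 CPM with water and 2103, 2109 and 1925 CPM with bicuculline, all 3 being lower, with a log2 fold change of -0.09. With edgeR the adjusted p was 0.0965 in DMSO and 0.503 in MM401, and the test of the difference between them did not pass (-0.26, SE 0.13, adjusted p 0.341).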

How the results depend on the processing

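Numbers of called genes are given in the order DMSO at 1 h and 4 h, MM401 at 1 h and 4 h, and 4 h against 1 h in DMSO and MM401. Where a count has no share of all tested genes, it is not read as a result about the set. With the shallow library they were 44, 54, 29, 47, 29 and 60 (31.1%, 38.2%, 27.4%, 35.1%, 22.3% and 21.7% of all tested genes), with 0 for MM401 water between times, and in MM401 at 4 h Lsamp turned to 0.116 and Dlg2 to 0.198. With plain library totals they were 52, 95, 21, 102, 89 and 105, with 4 for water between times, and the medians in the first 3 were 0.092, 0.012 and 0.05. Plain totals turned the direction of Erbb4 (-0.028) in DMSO at 1 h, of Csmd1 (-0.098), Rbfox1 (-0.196), Auts2 (-0.203), Nrg3 (-0.196), Macrod2 (-0.223), Opcml (-0.175), Wwox (-0.049) and Immp2l (-0.129) in DMSO at 4 h, and of Csmd1 (-0.051), Ptprd (-0.031), Nrg3 (-0.08), Opcml (-0.003) and Lrba (-0.015) in MM401 at 1 h. With the gene length offset the counts were 54, 110, 33, 107, 107 and 98, with 6 for water between times, and the medians in the first 3 were -0.042, -0.041 and -0.055, and 0.008 and -0.008 between times. The offset takes out by construction a shift common to genes of one length. It turned the direction of Dmd (-0.099), Csmd1 (-0.142), Lsamp (-0.172), Dlg2 (-0.053), Ptprd (-0.139), Rbfox1 (-0.039), Cntnap2 (-0.136), Auts2 (-0.08), Nrg3 (-0.084), Erbb4 (-0.185), Macrod2 (-0.174), Opcml (-0.093) and Magi2 (-0.168) in DMSO at 1 h. It turned that of Csmd1 (-0.17), Lsamp (-0.083), Ptprd (-0.075), Rbfox1 (-0.263), Auts2 (-0.259), Nrg3 (-0.244), Macrod2 (-0.309), Opcml (-0.189), Wwox (-0.104), Fhit (-0.079), Immp2l (-0.178) and Magi2 (-0.019) in DMSO at 4 h. It turned that of Dmd (-0.132), Csmd1 (-0.226), Lsamp (-0.162), Dlg2 (-0.043), Ptprd (-0.235), Rbfox1 (-0.147), Cntnap2 (-0.108), Auts2 (-0.121), Nrg3 (-0.217), Erbb4 (-0.027), Macrod2 (-0.172), Opcml (-0.077), Fhit (-0.015), Immp2l (-0.014), Magi2 (-0.157), Smyd3 (-0.03), Grid1 (-0.078), Lrba (-0.093), St6galnac3 (-0.04), Cdk14 (-0.008) and Exoc4 (-0.071) in MM401 at 1 h. The cause of each other change was not tested. Without the filter water between times gave 2 calls.

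With the replicate number as a block the counts were 120, 115, 110, 76, 69 and 110 (47.4%, 51.8%, 43%, 46.5%, 36.7% and 36.1% of all tested genes), with 2 for water between times, and in MM401 at 4 h the median turned to 0.001 and Dlg2 to 0.004. Over all pairs of groups the correlations of same-numbered libraries ran from -0.229 to 0.241 (median 0.089), and outside the pair of 4 h bicuculline groups the numbers were not read as pairs. For that pair the block gave 0 calls in the fit of all groups and 7, all lower in MM401, in a fit of those groups alone. DESeq2 gave 118, 113, 107, 78, 67 and 106, where 41.7%, 46.5%, 41.1%, 45.1%, 33.1% and 33.2% of the genes it gave an adjusted p were called, with 2 for water between times (1.89%), 2 for MM401 against DMSO in water and 59 for the difference of responses at 4 h. With the groups of a comparison alone they were 67, 73, 88, 93, 89 and 92 (35.7%, 44.5%, 43.3%, 51.1%, 31.3% and 33.1%). With MM401 water at 4 h as reference at 1 h 61 were called, with no share over all tested genes to read them against, and Csmd1 turned to -0.003. The 91 genes with no overlapping gene gave 55, 51, 47, 34, 34 and 55, and those of at least 750 kb 41, 43, 34, 24, 16 and 42, with 0 for water between times, both from fewer genes. Both were read from the main fit, where 44.6%, 49.2%, 39.9%, 44.6%, 34.2% and 33.6% of all tested genes were called. Without the 100 genes with the most counts the shares were 7.28%, 6.92% and 6.64% in DMSO with bicuculline at 1 h, at 4 h and water, 7.47% and 6.5% in MM401 with bicuculline at 1 h and 4 h, and 7.02% and 7.1% with water.

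Leaving out 1 library at a time gave 69 to 157 calls in DMSO at 1 h (medians 0.229 to 0.412), 45 to 115 in MM401 at 1 h, 47 to 85 in MM401 at 4 h (medians -0.095 to 0.036), 0 to 2 for water between times, 0 to 69 for MM401 against DMSO in water, and 0 to 110 and 0 to 3 for the difference of responses at 4 h and 1 h. The median between times in DMSO ran from -0.032 to 0.01. In DMSO at 4 h Rbfox1 ran from -0.093 to 0.31, Auts2 from -0.052 to 0.224, Nrg3 from -0.116 to 0.331, Macrod2 from -0.115 to 0.246 and Opcml from -0.065 to 0.273. In MM401 at 4 h Dlg2 ran from -0.118 to 0.064 and Immp2l from -0.184 to 0.004. Without both replicate 1 of DMSO water and replicate 3 of MM401 bicuculline at 4 h, chosen after seeing the data, in MM401 at 4 h the median was 0.035, Dlg2 0.064 and Immp2l 0.003. The rises of Elmo1 and Mast4 and the 4 h falls of Cadps2 and L3mbtl4 kept their direction and call in every fit run. Depth limits few of these values, since the lowest count was 36.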
